A study of Mus musculus with 56 samples.

Results

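The comparison set 9 brain libraries of Fmr1 knockout (KO) mice against 9 of wild-type (WT) mice, with the genotype effect estimated once across 3 regions. Members were the 18 libraries whose labels name cortex, hippocampus or cerebellum, out of 56 libraries in the series, with 3 WT and 3 KO libraries per region. Each library was sequenced from poly(A)-enriched RNA of a tissue powder, and genes were tested in 1 model with region as a blocking factor. The labels give genotype and tissue for these samples, but no knockout allele, strain, age or animal number. Nothing says that the libraries came from separate animals, or whether equally numbered libraries of different regions share one. The p-values therefore measure the spread between these libraries, part of which may be technical.

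Fmr1 encodes FMRP, an RNA-binding protein of neurons that associates with translating ribosomes and represses the translation of many of the mRNAs it binds. Its loss causes fragile X syndrome, and Fmr1 KO mice are the usual animal model of that disorder. FMRP acts mostly on protein output, so mRNA levels report only one layer of its function.

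The 18 libraries held between 26264368 and 41384652 counts over 15777 genes, and 15504 genes were tested. Markers fitted the labelled regions. Granule and Purkinje cell markers of the cerebellum summed to 14840 to 15770 CPM (counts scaled to a common effective library size) in cerebellum and to at most 1620 CPM elsewhere, and excitatory forebrain markers to 4244 to 7200 CPM in cortex and hippocampus and at most 744.9 CPM in cerebellum. Choroid plexus transcripts varied between hippocampus libraries of either genotype, where WT 1 and KO 2 had 267.7 and 211 CPM and the other libraries up to 9412 CPM. In bulk tissue, fewer cells of a type and less RNA per cell cannot be told apart.

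Fmr1 itself fell in every region and was the clearest single change. Its levels in cortex were 120.9, 130 and 120.5 CPM in WT and 28.02, 34.5 and 32.44 CPM in KO. Hippocampus had 95.12, 90.73 and 86.05 CPM in WT and 24.28, 24.07 and 24.61 CPM in KO, and cerebellum 99.76, 103.7 and 119.4 CPM against 29.97, 30.74 and 31.52 CPM. WT and KO did not overlap in any region. The pooled log2 fold change was -1.89 ± 0.04 (SE, n = 9 libraries per genotype), a level 73% lower, with an adjusted p of 2.8e-16 (edgeR quasi-likelihood F test, Benjamini-Hochberg adjusted over all tested genes). The transcript was thus still counted in KO brain, at 0.27 of the WT level.

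Across the brain, many genes differed slightly by genotype. At an adjusted p under 0.05, 630 genes were called (4.06% of those tested), 288 higher (1.86%) and 342 lower (2.21%) in KO, and 3354 genes (21.6%) had an unadjusted p under 0.05. The median absolute log2 fold change of called genes was 0.162 for those higher and 0.238 for those lower. Only 158 of the 630 moved by at least 0.3 on the log2 scale, and 26 by at least 1, of which 24 had a mean level under 5 CPM. The other 2 were Fmr1 and Gh. Gh, the pituitary growth hormone gene, had 73584 counts in cortex KO 1 and 0 to 113 counts in the other 17 libraries. In the same library the pituitary hormone gene Pomc had 601 counts, against 10 to 26 elsewhere. The pooled value of Gh (10.3 ± 2.67, edgeR adjusted p 0.048) was 2.6 without that library.

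**Figure D1:**
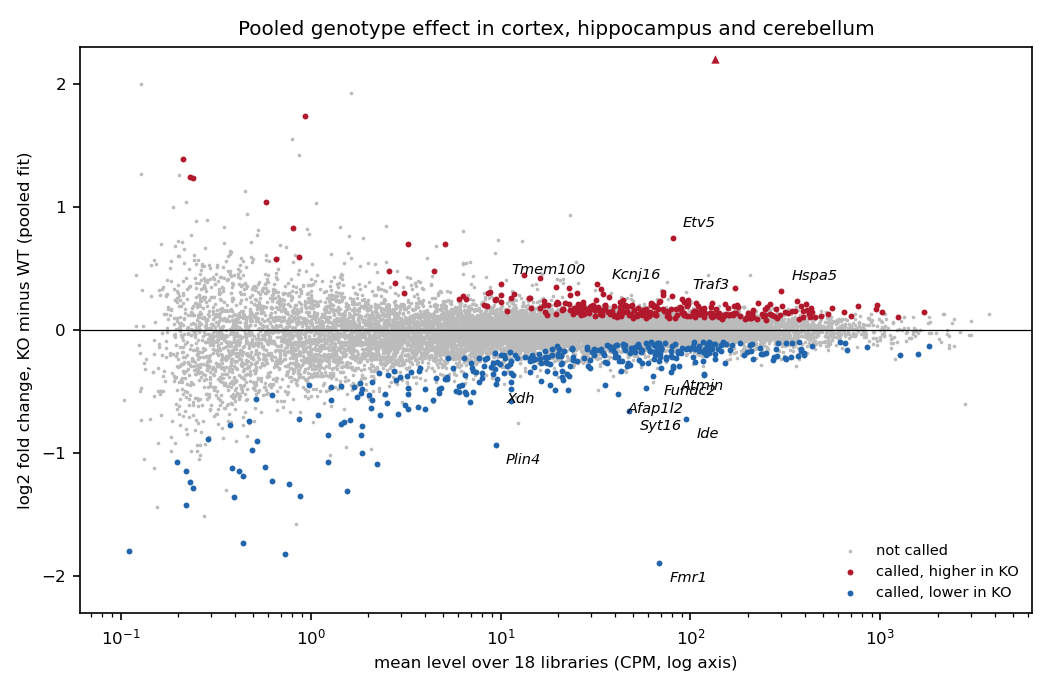
Pooled log2 fold change (KO minus WT) of the 15504 tested genes against their mean level in CPM on a log axis. Each point is a gene, red where called higher, blue where called lower and grey where not called, and the triangle at the upper edge is Gh, whose value of 10.3 lies beyond the axis. Fmr1 at -1.89 stands below all other called genes above 5 CPM, and most calls lie within 0.3 of zero.

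The direction of the called genes was mostly shared. Of the 630, 571 (90.6%) had the same sign in the 3 regions when each region was fitted alone, against 33.1% of all tested genes. This share describes the fit, since the same libraries gave the calls. KO and WT libraries were fully separated in each of the 3 regions, in the same direction, for 113 genes (0.729% of those tested), 45 higher (0.29%) and 68 lower (0.439%), of which 106 were called. Fitted alone, cortex called 3 genes (0.0203%), hippocampus 33 (0.222%) and cerebellum 34 (0.232%), and 21%, 12.5% and 8.82% of genes had an unadjusted p under 0.05. A test of whether the genotype effect differed between regions called 0 genes (edgeR, 2 degrees of freedom, 0% of those tested), with 1862 genes (12%) at an unadjusted p under 0.05. DESeq2 called 181 genes in its likelihood ratio test of the same terms. The edgeR count was 223 without cortex WT 3 and 8 without cortex KO 1.

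Calls from a pair of regions were also looked up in the remaining one, which had played no part in them. Hippocampus and cerebellum together called 51 genes. In cortex, 45 of the 49 that could be tested there (91.8%) had the same sign, against 60.1% of all tested genes, and 32 (65.3% against 15.7%) also had an unadjusted p under 0.05. Cortex and cerebellum called 109 genes, and 87 of 96 (90.6% against 64.8%) had the same sign in hippocampus, 50 of them (52.1% against 10%) with p under 0.05. Cortex and hippocampus called 832 genes, of which 547 of 808 (67.7% against 54.5%) had the same sign in cerebellum and 87 (10.8% against 5.9%) had p under 0.05. The shares carried over were thus lowest where cerebellum was the remaining region, as were the shares of all tested genes. This difference in shares was not tested. That lookup also began from the longest list, 832 genes against 51 and 109. Calls from cerebellum alone were not looked up in the forebrain regions.

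Among the 12 genes with the largest rise that also separated KO from WT in each region, Etv5 stood first. Etv5 is an ETS transcription factor induced by fibroblast growth factor and ERK signalling. In cortex its levels were 95.28, 95.46 and 74.95 CPM in WT and 144.2, 116 and 139.2 CPM in KO, and in hippocampus 55.89, 52.2 and 52.34 CPM in WT and 93.64, 88.29 and 80.38 CPM in KO. In cerebellum they were 39.03, 44.24 and 39.59 CPM in WT and 84.34, 74.37 and 81.56 CPM in KO. Each KO library thus lay above all WT libraries of its region, and the pooled change was 0.75 ± 0.06 (n = 9 per genotype, edgeR adjusted p 1.7e-06), a level 68.4% higher. The region values were 0.59 in cortex, 0.71 in hippocampus and 0.97 in cerebellum. Of 18 tested ERK feedback genes, such as sprouty and dual-specificity phosphatase genes, Etv5 was the only one called by edgeR, and their median was 0.03. DESeq2, and edgeR with the GC offset described below, also called Lrig1 higher.

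The other genes of that kind rose by less. Tmem100, which encodes a small transmembrane protein of endothelial and sensory cells, had levels of 9.26 to 11.9 CPM in the WT and 12.4 to 15.2 CPM in the KO libraries of cortex and hippocampus, and 4.77 to 5.79 against 6.65 to 7.21 CPM in cerebellum. Its pooled change was 0.37 ± 0.05 (edgeR adjusted p 0.0002). Kcnj16, an inward-rectifier potassium channel subunit, rose by 0.33 ± 0.06, and B3galt2, a galactosyltransferase, by 0.31 ± 0.05. Neto1, an auxiliary subunit of kainate receptors, rose by 0.28 ± 0.06. Traf3, an adaptor of tumour necrosis factor receptor signalling, rose from 66.1 to 70.5 CPM in cortex WT to 80.7 to 86 CPM in cortex KO, from 104.2 to 114 to 130.7 to 137.9 CPM in hippocampus and from 66.7 to 69.9 to 74.7 to 81.1 CPM in cerebellum (0.25 ± 0.03, edgeR adjusted p 0.00017). Dnajc1, a membrane-bound co-chaperone of the endoplasmic reticulum, rose by 0.25, and Them4, an acyl-CoA thioesterase that also binds Akt, by 0.23. Psd3, an exchange factor for the small GTPase Arf6, rose by 0.21. 1700086L19Rik and Gramd3 rose by 0.26 and 0.22, and the edgeR adjusted p of these genes was at most 0.018.

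The larger changes were on the lower side. Ide encodes insulin-degrading enzyme, a protease of insulin and amyloid-beta peptides. Its WT levels were 131.8, 108.5 and 98.06 CPM in cortex, 114.7, 90.34 and 86.02 CPM in hippocampus and 170.7, 125 and 134.8 CPM in cerebellum. The KO levels were 67.08, 65.46 and 69.92 CPM, 60.87, 61.02 and 61.83 CPM, and 83.24, 85.24 and 85.24 CPM. KO libraries were tightly grouped and below every WT library of their region, while the WT library numbered 1 was the highest in each region. The pooled change was -0.72 ± 0.06 (edgeR adjusted p 3.2e-06), a level 39.4% lower, and the regions were alike at -0.74, -0.66 and -0.75.

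Syt16, a member of the synaptotagmin family thought not to bind calcium, had cortex levels of 103.8, 104.4 and 96.44 CPM in WT and 58.74, 74.02 and 70.62 CPM in KO. Hippocampus had 73.49, 63.8 and 63.04 CPM in WT and 44.96, 43.23 and 39.38 CPM in KO. The cerebellum expressed it at only 3.87 to 4.18 CPM in WT and 2.13 to 2.16 CPM in KO. The proportional change was nevertheless of the same order in the 3 regions (-0.58, -0.65 and -0.90), and the pooled value was -0.66 ± 0.05 (edgeR adjusted p 1.5e-06). Afap1l2, an actin-associated adaptor of Src kinase signalling, had the opposite regional pattern of level. It had 113.7 to 120.6 CPM in WT cerebellum and 89.2 to 90.6 CPM in KO, with 9.57 to 11.7 and 5.69 to 7.59 CPM in cortex and 14.4 to 14.7 and 9.01 to 10.4 CPM in hippocampus (pooled -0.52 ± 0.05, edgeR adjusted p 2.2e-05).

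**Figure D2:**
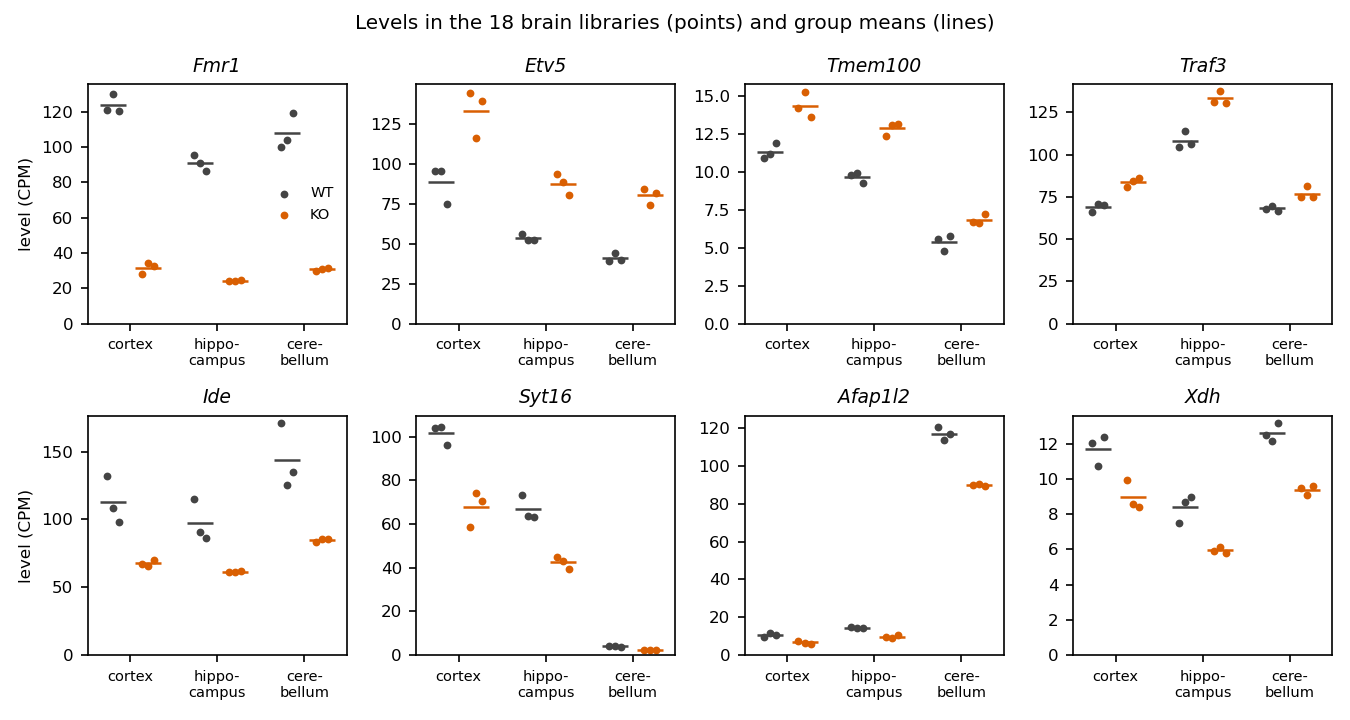
Levels in CPM of 8 genes in each of the 18 libraries (points, grey for WT and orange for KO) by region, with the mean of each group of 3 as a line. KO and WT points do not overlap in any region for these genes, for example 144.2, 116 and 139.2 CPM against at most 95.46 CPM for Etv5 in cortex.

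The other lower genes had varied roles. Plin4, which coats lipid droplets, had WT levels of 9.18 to 16.1 CPM and KO levels of 3.56 to 10 CPM, the largest called change of a gene above 5 CPM apart from Fmr1 and Gh (-0.93 ± 0.13, edgeR adjusted p 0.00065). Pla2g4e, a cytosolic phospholipase that makes precursors of endocannabinoids, fell by 0.51 on the log2 scale, and Vipr1, a receptor of vasoactive intestinal peptide, fell by 0.45. Xdh, the enzyme that makes uric acid from xanthine, had 7.47 to 13.2 CPM in WT and 5.78 to 9.95 CPM in KO (-0.44 ± 0.05, edgeR adjusted p 0.00014). Fundc2, a mitochondrial outer membrane protein gene on the X chromosome, fell by 0.37 ± 0.04. Sesn2, a leucine sensor that restrains mTORC1, fell by 0.34, the zinc finger factor gene Atmin by 0.34, and Aff1, a scaffold of the super elongation complex, by 0.33. The edgeR adjusted p of these genes was at most 0.011.

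**Figure D3:**
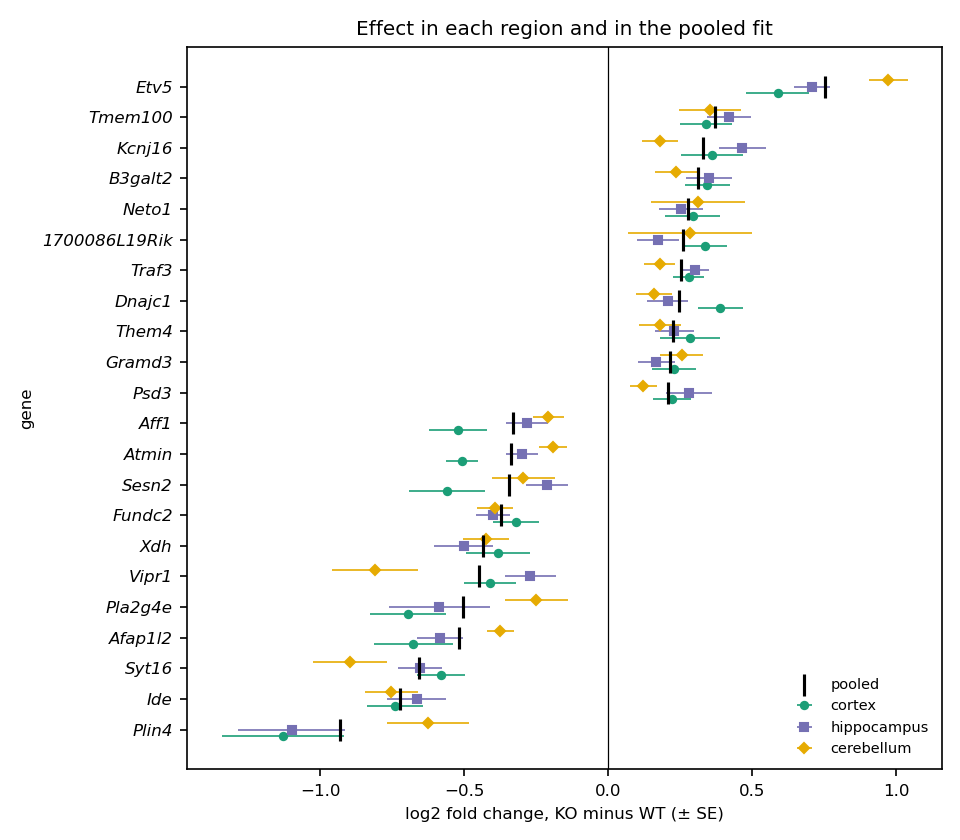
Log2 fold change (KO minus WT, ± SE) of 22 named genes in cortex (circles), hippocampus (squares) and cerebellum (diamonds), each fitted alone, and in the pooled fit (black bars). All 3 regional values of each gene lie on the same side of zero, with Etv5 from 0.59 to 0.97 and Plin4 from -1.13 to -0.63.

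A smaller group of genes stayed called without any single library or region. In edgeR, 190 of the 630 stayed called in all 18 fits that left out 1 library, and 27 of those were also called in each of the 3 fits that left out a whole region. The 6 that rose were Etv5, Tmem100, B3galt2, Traf3, Atxn7l3b and H3f3a, a gene of the replacement histone H3.3, with H3f3a at 0.20 ± 0.03 and Atxn7l3b, a relative of a deubiquitinase module subunit, at 0.19 ± 0.03. The 21 that fell included Fmr1, Ide, Syt16, Afap1l2, Plin4, Xdh, Fundc2, Atmin and Aff1. They also included Slc2a1, the glucose transporter of the blood-brain barrier (-0.29 ± 0.04), Alox8, a lipoxygenase (-0.56 ± 0.08), Gstm1, a glutathione transferase (-0.27 ± 0.04), and Fmo2, a flavin monooxygenase at 1.31 to 4.69 CPM in WT and 0.657 to 1.81 CPM in KO, a level 49.9% lower. Pprc1, a coactivator of mitochondrial biogenesis, changed by -0.27 ± 0.04, and Tbc1d1, a Rab GTPase activator of glucose transport, by -0.26 ± 0.04. Arhgap35, a GTPase activator, changed by -0.23 ± 0.03 and Gbf1, an Arf exchange factor of the Golgi, by -0.17 ± 0.02. The other members were Btaf1, Tenc1, Hmgxb3 and Atp10a, from -0.35 to -0.28.

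The FMRP family and its partners came next. Of 15 tested genes for FMRP relatives and proteins that share its granules, 3 were higher and Fmr1 lower. Among all tested genes, 4.06% were called. The list median was 0.05 (cortex 0.11, hippocampus 0.04, cerebellum 0.01), against -0.005 for all tested genes. G3bp1, which assembles stress granules, had 45.7 to 58.4 CPM in WT and 49.1 to 61.2 CPM in KO (0.11 ± 0.03, edgeR adjusted p 0.033). Caprin1, its partner in neuronal RNA granules, rose by 0.11 ± 0.03 and Purb, a single-stranded nucleic acid binding protein, by 0.17 ± 0.04. The changes of these 3 genes were 7.92% to 12.4% of the WT level, and KO and WT ranges overlapped in at least 1 region. G3bp1 and Caprin1 each kept their call in 6 of the 18 fits without 1 library.

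Of 43 well-known FMRP target mRNAs, 1 was higher and 3 lower, while 4.06% of all tested genes were called. A negative value was found for 31 of them, against 8071 of all 15504 tested genes. Their median was -0.03 (cortex -0.09, hippocampus 0.01, cerebellum -0.01). Map1b, a microtubule-associated protein and one of the first targets described, had 1905, 2018 and 1973 CPM in WT cortex and 1832, 1889 and 1798 CPM in KO cortex. In hippocampus it had 2328, 2421 and 2305 against 2235, 2206 and 2042 CPM, and in cerebellum 1312, 1254 and 1359 against 1140, 1197 and 1174 CPM. KO lay below WT in each region, by -0.13 ± 0.03 overall (edgeR adjusted p 0.019). Tsc2, an inhibitor of mTORC1, changed by -0.13 ± 0.03 and Dync1h1, the dynein heavy chain, by -0.14 ± 0.04, while Kcnd2, the potassium channel Kv4.2, changed by 0.12 ± 0.03. Without 1 library, Tsc2 kept its call in 13, Dync1h1 in 5 and Kcnd2 in 3 of 18 fits, and Map1b in all 18. Among 31 genes of PI3K, mTOR and translation control, 1 was higher and 3 were lower. Those lower were Tsc2, Mtor (-0.09 ± 0.02) and the PI3K subunit gene Pik3r1 (-0.12 ± 0.03).

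Receptor and release genes moved little as groups. The share called among all tested genes was 4.06%. None of the 32 ionotropic glutamate receptor and scaffold genes was called by edgeR, 7 had an unadjusted p under 0.05, and their median was -0.02. DESeq2 called 1 of them, the kainate receptor subunit gene Grik2. Of 30 genes of metabotropic glutamate receptor signalling, the pathway most studied in fragile X models, 1 was higher and 1 lower. Cnr1, the cannabinoid receptor at the end of that pathway, had 200 to 244 CPM in WT cortex and 295 to 310.4 CPM in KO cortex, but 614.8 to 655 against 642.3 to 662.1 CPM in cerebellum (pooled 0.21 ± 0.06, edgeR adjusted p 0.040). Its call was kept in 6 of the 18 fits without 1 library. Itpr3, an inositol trisphosphate receptor of the endoplasmic reticulum, was lower mainly in cerebellum, with 27.4, 28.96 and 29.24 CPM in WT and 14.64, 17.74 and 17.75 CPM in KO (pooled -0.48 ± 0.10). The summed choroid plexus list in cerebellum was 982.9 to 2262 CPM in KO and 2028 to 3119 CPM in WT, ranges that overlap. In hippocampus, Itpr3 was 7.045 CPM in WT 1 and 4.556 CPM in KO 2, the libraries nearly without choroid plexus transcripts, against 6.564 and 5.157 CPM in the other WT and 4.88 and 4.884 CPM in the other KO libraries.

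Among 35 genes of the GABA synapse and interneurons, edgeR called 2 receptor subunit genes higher and none lower, while 4.06% of all tested genes were called. DESeq2 also called Gabrd lower. Of the 2 genes called by edgeR, Gabra2 rose by 0.25 ± 0.06 (edgeR adjusted p 0.031), a call kept in 11 of the 18 fits without 1 library. With the GC offset, Gabra2 alone was called. Of 49 potassium, HCN and calcium channel genes edgeR called Kcnd2 alone, and of 43 synaptic vesicle genes it called Syt16 and Syt2 lower. DESeq2 called 2 channel genes higher and 3 lower, and 1 vesicle gene higher and 4 lower. Syt2, the fast calcium sensor of release, was 41.4 to 51.5 CPM in WT and 24.5 to 33.9 CPM in KO cortex, and 15 to 21.4 against 10.6 to 14.6 CPM in hippocampus. In cerebellum, where it was most highly expressed, the ranges overlapped at 289.1 to 312.9 and 293.8 to 307.8 CPM, and the regional value was 0.00 against -0.66 in cortex. The difference between regions had an unadjusted p of 0.003 for Syt2 and 0.002 for Cnr1, and neither passed the correction. Syt2 kept its pooled call in 5 of the 18 fits without 1 library.

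Of 67 tested splicing factor genes, 53 had a positive value, against 7433 of all 15504 tested genes. The 4 called higher and 0 lower are a share near the 4.06% of all genes, and DESeq2 called 10 higher and 0 lower. The list had a median of 0.05 (cortex 0.13, hippocampus 0.07, cerebellum 0.01). Rbfox2, a neuronal regulator of alternative exons, was separated by genotype in each region, with 281.1 to 307.5 CPM in WT and 323.3 to 344.4 CPM in KO cortex, 271.7 to 288.5 and 298.3 to 331.7 CPM in hippocampus, and 316.4 to 329.1 and 340.9 to 351.7 CPM in cerebellum (0.15 ± 0.03, edgeR adjusted p 0.0064). Celf1 and Hnrnpm rose by 0.12 and 0.11, and Celf2 was the other member called. Celf1 kept its call in 5 and Hnrnpm in 2 of the 18 fits without 1 library.

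Of 27 heat shock and chaperone genes, edgeR called 4 higher and none lower, against 1.86% higher and 2.21% lower of all tested genes. A positive value was found for 20 of them, against 7433 of all 15504 tested genes. Their median was 0.06 (cortex 0.11, hippocampus 0.06, cerebellum 0.03). DESeq2 called 7 higher and 0 lower. Hspa5 encodes BiP, the main chaperone of the endoplasmic reticulum. It had 250.9, 267.5 and 298.9 CPM in WT and 365.4, 365.7 and 375.7 CPM in KO cortex. In hippocampus it had 225.4, 286.7 and 256 against 324.7, 282.3 and 346.7 CPM, and in cerebellum 250.3, 270 and 285.5 against 307.3, 306.4 and 317.2 CPM. KO was above WT throughout except in hippocampus KO 2, which lay just below the highest WT library (0.32 ± 0.05, edgeR adjusted p 0.0024). Calr, a calcium-binding chaperone of the same compartment, rose by 0.23 ± 0.04 and the disulfide isomerase Pdia6 by 0.16 ± 0.04. Xbp1, a transcription factor of the unfolded protein response chosen after its values were seen, had 49.1 to 68.2 CPM in WT and 59.3 to 76.5 CPM in KO and was separated in each region (0.19 ± 0.03, edgeR adjusted p 0.0051). Chordc1, a co-chaperone of Hsp90 in the cytosol, rose by 0.24 ± 0.05.

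The promoters of the 3 called chaperone genes of the endoplasmic reticulum share a sequence, printed here because the genes rose together. Each line gives the 250 bases before the RefSeq transcription start (GRCm38.p6) on the strand of the gene, with the fixed letters of the endoplasmic reticulum stress element in capitals. The element was searched on both strands as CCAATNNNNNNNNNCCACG, a choice made after the values were seen.
Hspa5, chr2:34771840-34772089, plus strand: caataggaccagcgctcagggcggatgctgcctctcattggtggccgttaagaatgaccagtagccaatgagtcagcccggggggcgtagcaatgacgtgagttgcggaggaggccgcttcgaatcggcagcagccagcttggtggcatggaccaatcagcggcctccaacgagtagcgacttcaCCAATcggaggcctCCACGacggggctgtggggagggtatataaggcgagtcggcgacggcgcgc
Calr, chr8:84846932-84847181, minus strand: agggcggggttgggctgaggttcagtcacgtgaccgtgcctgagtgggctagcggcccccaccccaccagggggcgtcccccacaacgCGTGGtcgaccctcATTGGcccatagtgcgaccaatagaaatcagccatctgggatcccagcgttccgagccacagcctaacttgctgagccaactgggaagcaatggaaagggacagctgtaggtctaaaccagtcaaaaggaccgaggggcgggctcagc
Pdia6, chr12:17266339-17266588, plus strand: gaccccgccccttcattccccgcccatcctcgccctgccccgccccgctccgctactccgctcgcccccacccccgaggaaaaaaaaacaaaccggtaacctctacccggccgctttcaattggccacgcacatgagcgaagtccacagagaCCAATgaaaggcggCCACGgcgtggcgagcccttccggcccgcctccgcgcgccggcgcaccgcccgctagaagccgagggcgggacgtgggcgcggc
The element began 65 bases before the start in Hspa5 and 98 in Pdia6, and lay on the opposite strand in Calr, 162 bases before it. It occurred in 37 of 32851 promoter windows of this length (0.113%). Of the 21 listed chaperone genes with a window, 5 held it, namely these 3, Hsp90b1 and Creld2. Hsp90b1 had a value of 0.15 ± 0.04 (edgeR adjusted p 0.056) and Creld2 one of 0.12 ± 0.06 (0.23). Over all genes, 19 of the 35 with the element were tested, of which 15 had a positive value and 3 were called, with a median of 0.06. A match is a description of the letters and says nothing about binding.

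Of 21 genes of the ATF4 and amino acid stress programme, 4 were lower and none higher, against 2.21% lower and 1.86% higher of all tested genes. A negative value was found for 17 of them, against 8071 of all 15504 tested genes. The median was -0.10 (cortex -0.17, hippocampus -0.07, cerebellum -0.04). Slc7a5, a transporter of large neutral amino acids, had 57.3 to 72 CPM in WT and 47.7 to 53.1 CPM in KO cortex, 59.5 to 64.1 and 53.8 to 58.5 CPM in hippocampus, and 73.9 to 88.4 and 68.2 to 75.7 CPM in cerebellum (-0.24 ± 0.05, edgeR adjusted p 0.014). Sesn2 is described above, Aldh18a1, an enzyme of proline synthesis, changed by -0.15 ± 0.04, and the transcription factor Atf5 by -0.23 ± 0.06. Aldh18a1 kept its call in 4 of the 18 fits without 1 library. Of 26 cholesterol synthesis genes, Msmo1 was the one called by edgeR (0.14 ± 0.03). DESeq2 called Idi1 as well, and with the GC offset edgeR called Idi1 and not Msmo1.

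Of 18 genes of the glucocorticoid response, 3 were lower and none was higher, against 2.21% lower and 1.86% higher of all tested genes. A negative value was found for 14 of them, against 8071 of all 15504 tested genes. Their median was -0.12 (cortex -0.18, hippocampus -0.12, cerebellum -0.03). Besides Plin4, the genes called lower were Zbtb16, a zinc finger repressor, at -0.47 ± 0.10, and Hif3a, a hypoxia factor relative, at -0.36 ± 0.09 (edgeR adjusted p 0.016 and 0.039). Hif3a kept its call in 6 of the 18 fits without 1 library, and Plin4 and Zbtb16 in all 18. In cerebellum Zbtb16 was 28.3 to 35 CPM in WT and 13.2 to 20.6 CPM in KO. Of 26 clock genes, edgeR called 2 lower and none higher, while DESeq2 called 4 lower and 1, Tef, higher. Tef was also called higher by edgeR with the GC offset described below. Nr1d1, the clock repressor REV-ERB alpha, had 115.2 to 132.8 CPM in WT and 80.6 to 84 CPM in KO cortex, 94.6 to 100.3 and 79 to 84.3 CPM in hippocampus, and 142.8 to 186.6 and 141.3 to 156.6 CPM in cerebellum (-0.36 ± 0.06, edgeR adjusted p 0.0044). Ciart, another repressor of the clock, had 6.88 to 13.5 CPM in WT and 5.04 to 10.7 CPM in KO (-0.31 ± 0.07, edgeR adjusted p 0.023). The time of day of tissue collection is not in the labels. Of 34 immediate early genes, Fosb alone was lower (-0.38 ± 0.08, edgeR adjusted p 0.019), and Fos itself had a value of 0.40 that was not called (0.45).

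The E-box CACGTG, the site of clock activators, is shown in Ciart because it occurs there in 3 copies, in capitals below, in the 250 bases before the start.
Ciart, chr3:95882229-95882478, minus strand: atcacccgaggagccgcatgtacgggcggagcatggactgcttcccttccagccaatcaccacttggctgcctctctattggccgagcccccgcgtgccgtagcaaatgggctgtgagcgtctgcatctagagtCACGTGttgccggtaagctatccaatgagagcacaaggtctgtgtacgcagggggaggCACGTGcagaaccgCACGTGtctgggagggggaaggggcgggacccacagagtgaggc
Those copies began 116, 58 and 44 bases before the start. The motif, which reads the same on both strands, was in 6.02% of all windows and in 5 of the 21 clock genes with a window, and the Nr1d1 window held none. The motif TGACG of cAMP response elements, searched on both strands, was in 17.8% of all windows and in 18 of 27 immediate early genes with a window, Fosb among them. No match says only that these letters are not in that window.

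**Figure D4:**
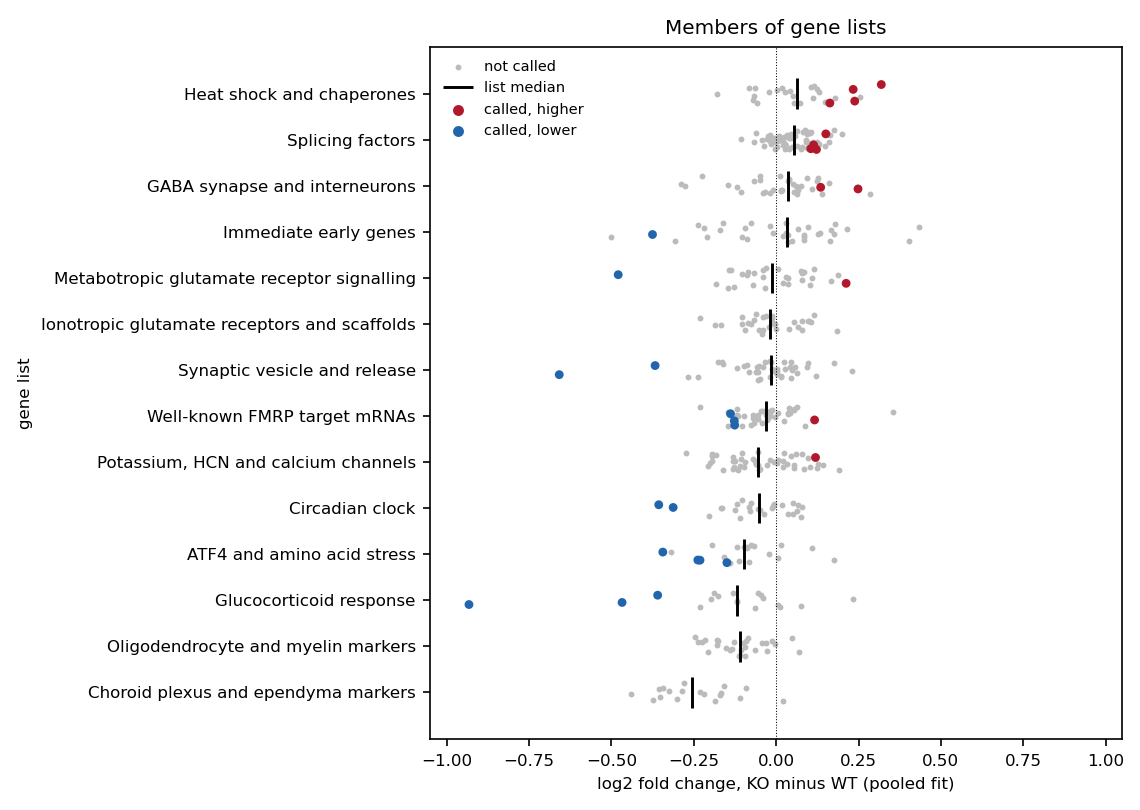
Pooled log2 fold change (KO minus WT) of the members of 14 gene lists. Each point is a gene, red or blue where called and grey where not, with vertical scatter only to separate points, and the black bar is the list median. Splicing factors and chaperones have medians of 0.05 and 0.06 with called genes on the right, and the ATF4 and glucocorticoid lists medians of -0.10 and -0.12 with called genes on the left.

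Markers of cell types were mostly not called, while 4.06% of all tested genes were. Of 28 oligodendrocyte and myelin markers none was called by edgeR and 7 had an unadjusted p under 0.05, all lower, while DESeq2 called 2, Bcas1 and Mag. Their pooled median was -0.11, with regional medians of -0.10 in cortex, -0.37 in hippocampus and 0.09 in cerebellum. Without hippocampus WT 1 and KO 2 the pooled median was -0.07. The summed level in hippocampus was 6998 to 7513 CPM in WT and 5786 to 5956 CPM in KO, and the ranges overlapped in the other regions. None of the 18 choroid plexus and ependyma markers was called either (1 at an unadjusted p under 0.05, 0 by DESeq2), with a median of -0.26 and regional medians of 0.61, -0.18 and -0.71. Of 16 astrocyte markers Slc4a4, a bicarbonate transporter, was higher (0.18 ± 0.05) and Ndrg2 lower (-0.10 ± 0.02). Slc4a4 kept its call in 5 and Ndrg2 in 9 of the 18 fits without 1 library, and with the GC offset Ndrg2 had an edgeR adjusted p of 0.084. Of 21 endothelial and mural markers, Slc2a1 and Vwf, the von Willebrand factor gene, were lower. Vwf was 20.5 to 38.4 CPM in WT and 14.1 to 22 CPM in KO (-0.48 ± 0.08, edgeR adjusted p 0.0044). The summed endothelial list was 633.2 to 696.4 CPM in WT and 606.5 to 626.9 CPM in KO cortex and overlapped in hippocampus and cerebellum. Other list sums were separated too. In hippocampus, excitatory forebrain markers were higher in KO (WT 6093 to 6434, KO 6541 to 7200 CPM). So were astrocyte markers (WT 9045 to 9456, KO 9492 to 10330 CPM). In cortex, blood cell markers were lower in KO (WT 171.5 to 203.6, KO 143.7 to 150.7 CPM). So were cerebellar markers (WT 1482 to 1620, KO 1291 to 1457 CPM). Hippocampal neuron markers were lower in KO cerebellum (WT 105.5 to 115.5, KO 98.84 to 104.2 CPM). The part of cell composition in the called genes was not tested.

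By position, the X chromosome held 32 called genes of 554 tested (5.78% against 4.06% overall), 25 higher and 7 lower. Within 10 Mb of Fmr1, 10 of 86 tested genes were called (11.6%), of which 7 were higher and 3 lower. They included Cd99l2, a membrane protein gene (0.20 ± 0.03), and Ids, which encodes a lysosomal sulfatase (0.18 ± 0.04), and on the lower side Fundc2, Plxnb3, a plexin (-0.33 ± 0.06), and Pls3, an actin bundler (-0.19 ± 0.04). Ide (chr19:37268743-37334544, GRCm38) and Btaf1 (chr19:36926079-37014057), a regulator of TATA-binding protein, are close neighbours and both fell in each region, Btaf1 by -0.27, -0.27 and -0.36.

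Liver and testis of the same genotypes, 3 libraries per group, were looked up for the genes called in brain. In testis, 324 of 540 tested brain calls (60%, against 56.9% of all tested genes) had the same sign. Of the 324, 67 (12.4% of the 540, against 11.5%) also had an unadjusted edgeR p under 0.05. Regardless of sign, 29 were called there (4.56% of testis genes were). Ide fell in testis from 599.9 ± 60.5 to 397.2 ± 14.1 CPM (mean ± SD, n = 3, -0.59 ± 0.06, edgeR adjusted p 6.1e-09), Gstm1 by -0.49 ± 0.07, Fundc2 by -0.63 ± 0.19 and Pprc1 by -0.39 ± 0.12. Slc7a5 changed by -0.30 ± 0.07, and Etv5 rose from 17.6 ± 1.8 to 25.1 ± 1.2 CPM (0.51 ± 0.10, edgeR adjusted p 0.0015). In liver, 297 of 465 brain calls (63.9% against 54.8%) had the same sign. Of the 297, 52 (11.2% of the 465, against 6.59%) also had an unadjusted edgeR p under 0.05. Regardless of sign, 3 were called (0.411% of liver genes were), namely Fmr1, Eepd1 and Tmem254a. Ide was not called in liver (106.3 ± 15.4 and 118 ± 5.4 CPM, 0.15 ± 0.13, edgeR adjusted p 0.71), and Btaf1 was not called in either tissue. Hspa5 had values of 0.12 ± 0.13 in liver and -0.04 ± 0.06 in testis and was not called.

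The called genes differed in the base composition of their transcripts. Called higher genes had a median transcript GC content of 44.5% and called lower genes one of 53.6%, against 49.8% for all tested genes. The slope of expression on GC content, in log2 units per 10 points and relative to the region mean, was -0.09 to -0.07 in the 3 cortex KO libraries and 0.16, 0.08 and -0.003 in cortex WT, so the groups did not overlap. In hippocampus it was 0.02, 0.0005 and 0.06 in WT and -0.08, -0.03 and 0.02 in KO, and in cerebellum 0.05, 0.06 and -0.13 in WT and 0.02, -0.02 and 0.01 in KO, and the groups overlapped in both. With an offset that removes this slope in each library, added after seeing the data, edgeR called 639 genes, 434 of them shared with the 630. The median GC content of those called was then 50.4% for higher and 50.1% for lower genes. All 27 genes above that held without any library or region were called with the offset, as were 90 of the 106 separated in each region and 51 of the 60 chosen by rule. The splicing factor list then had a median of 0.03 with 4 called, and the chaperone list one of 0.05 with 5 called (Hspa9 lower). The glucocorticoid list had a median of -0.08 with 3 called. Of the ATF4 genes, Slc7a5 and Sesn2 stayed called and Aldh18a1 and Atf5 did not. Hspa5 (adjusted p 0.0019), Calr (0.0021), Rbfox2 (0.0018) and Map1b (0.0021) stayed called by edgeR with the offset, while Neto1 (0.063), Kcnd2 (0.11), Caprin1 (0.13) and Ndufs4 (0.17), a subunit of respiratory complex I, did not.

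**Figure D5:**
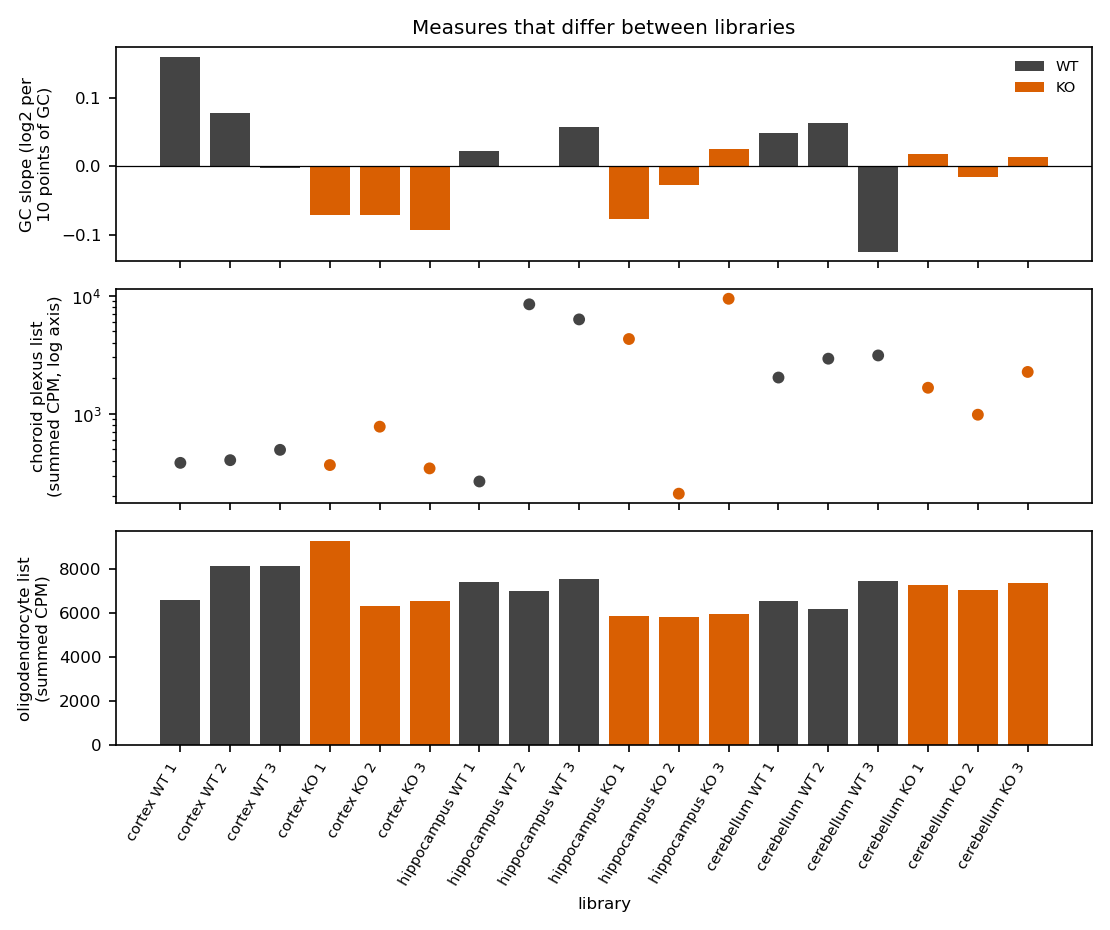
Slope of expression on transcript GC content (top), summed level of 18 choroid plexus and ependyma markers on a log axis (middle) and summed level of 28 oligodendrocyte markers (bottom) in each of the 18 libraries, grey for WT and orange for KO. Cortex KO libraries have negative slopes, hippocampus WT 1 and KO 2 have 267.7 and 211 CPM of choroid plexus markers, and the hippocampus KO libraries have the lowest oligodendrocyte sums of that region, 5786 to 5956 CPM.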

How the data were processed

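Brain RNA was poly(A)-enriched and made into libraries with a NEXTflex directional kit, per the labels' protocols. The authors deposited 1 table of read counts per gene for the 18 libraries, with TPM values beside them. The TPM values were deposited too and were used only to describe a gene's mean level in the tables behind the text. The submitters' processing notes name CASAVA, FastQC 0.11.8, Trimmomatic 0.39, Bowtie2 2.3.5, STAR 2.6.1, RSEM 1.3.1 and DESeq2 1.16.1 and the builds GRCm38 and mm10, with no roles. If the whole-number counts are rounded RSEM estimates, genes with near-identical copies share reads by estimate. Liver and testis tables were deposited counts as well. Muscle and splicing tables were not used here.

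Genes were filtered with filterByExpr, scaled by TMM and tested with edgeR 4.0.16 (glmQLFit with legacy off, glmQLFTest) under R 4.3.3, with region as a blocking factor. The biological coefficient of variation was 8.55%. CPM use TMM-scaled library sizes. A call is a Benjamini-Hochberg adjusted p under 0.05 over all tested genes. Promoters and gene positions came from RefSeq (GRCm38.p6), and GC content from GENCODE M21. Positions were matched for 99.7% and GC content for 99.2% of tested genes. The model was tested on simulated data.

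The members, the 31 gene lists and the tests were chosen with earlier results of these data known. The genes named by rule were Fmr1, then up to 12 higher and 12 lower called genes with the largest change. These needed a mean of at least 5 CPM, the same sign in each region and KO and WT libraries that did not overlap in any region. Up to 3 called members of each list by smallest p and called differences between regions followed, 60 genes in all. Some of these are not reported here. Genes named outside this rule were chosen after their values were seen. Alternatives used DESeq2 1.42.0, limma 3.58.1, other scaling and filters, a block on replicate numbers, and fits without each library or region. Figures were drawn with matplotlib 3.10.9.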

Additional observations from a re-analysis of the deposited data

Results flagged for a closer look

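Of the 29 named genes whose KO libraries lay entirely on one side of WT in each brain region, 2 lay entirely on the other side in another tissue. Etv5 was higher in KO in brain (0.75) and lower in every liver KO library (-0.69, edgeR unadjusted p 0.0033, adjusted p 0.16). Traf3 was higher in KO in brain (0.25) and lower in every testis KO library (-0.20, edgeR unadjusted p 0.22, adjusted p 0.55). The difference between brain and these tissues was not tested, because the tables were scaled separately.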

How the results depend on the processing

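The number of called genes depended strongly on the design. No named gene changed sign in the alternatives for which gene signs were compared. That comparison left out the fits of a region alone, upper-quartile scaling, the other filters, the robust fit and the mean of the region effects. Against 630 calls, DESeq2 gave 1048 and a minimum absolute log2 fold change of 0.3 left 158. Summing counts over regions by replicate number gave 69, with 17 of the 60 genes named by rule called. Hspa5 (edgeR adjusted p 0.056), Calr (0.082), Rbfox2 (0.06) and Map1b (0.14) were among those not called. Fits without cortex, without hippocampus and of cortex, hippocampus or cerebellum alone gave 51, 109, 3, 33 and 34. Without hippocampus WT 1 and KO 2, added after seeing the data, the count was 315. Leaving out 1 library gave 224 (without cortex WT 2) to 1791 (without cerebellum WT 3). It was also more than 1.5 times from 630 without cortex WT 1 (367), cortex KO 2 (306), cortex KO 3 (247), hippocampus WT 2 (336), WT 3 (367), KO 1 (287) or KO 2 (360), and cerebellum WT 1 (292) or WT 2 (341). The other scalings and filters, the legacy and robust quasi-likelihood fits, limma-voom and the fit without cerebellum gave 539 to 832, and the unweighted mean of the 3 region effects gave 905.

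A replicate block, which sets equally numbered WT and KO libraries of a region against each other, gave 130 calls, and 174 with the GC offset, an alternative added after seeing the data. Same-numbered WT and KO libraries of a region had deviations correlated from -0.75 to 0.68 (median -0.26), so the numbers showed no pairing across genotypes. Within a genotype, same-numbered libraries of different regions had a median of 0.09, against -0.10 for other numbers. Correlations over 0.1 were found in 9 of 18 and 11 of 36 such pairs. Whether such libraries share an animal remained unknown. Of the 836 tested list members, 47 were called, while 4.06% of all tested genes were. The count was 15 with the replicate block and 2, 10 and 7 in cortex, hippocampus and cerebellum alone. It was 26 without hippocampus WT 1 and KO 2, and 87 by DESeq2. Differences between regions numbered 0 in edgeR and 181 by DESeq2, and 0 to 223 when 1 library was left out, with 8 without cortex KO 1. Genes called by DESeq2 from a pair of regions had the same sign in the remaining region for 199 of 230 in cortex (86.5%), 292 of 332 in hippocampus (88%) and 1009 of 1538 in cerebellum (65.6%), against 60.1%, 64.8% and 54.5% of all tested genes. The causes of these shifts were not tested. The smallest absolute log2 fold change that was called was 0.08.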
